A study of Mus musculus with 21 samples.

Results

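The genes described here are 5 members of the interleukin-6 (IL-6) cytokine family and its receptors: the ligand genes Il6, Lif and Osm, and the receptor genes Il6ra and Il6st. They are the rows of the gene table whose Ensembl identifier maps to these symbols. They are 5 of 23250 genes in the table, and all 5 passed the filter on low counts that left 13468 genes for testing. Expression was measured by RNA sequencing in mouse macrophages grown from bone marrow of the femur and tibia. The marrow came from mice on the C57BL/6J background and was cultured for 7 days with 2.5% supernatant of a cell line that makes GM-CSF, a growth factor for myeloid cells. The series' text describes the cells of every group as deficient in the mannose receptor (MR), an endocytic lectin, and the labels give neither the allele nor the age or sex of the mice. Cells were left untreated and taken at 0 h, or treated for 4, 12 or 24 h with FcMR or with an isotype control. FcMR is a recombinant fusion of the Fc region of human IgG1 with the extracellular region of the MR. These are 7 groups of 3 libraries, 21 libraries in all. The comparison of FcMR with isotype at the same time asks what soluble MR does to gene expression in cells that lack their own. Untreated cells were taken at 0 h only, so in the comparison of isotype with untreated cells the control protein and the time after its addition cannot be told apart. The labels do not say whether the 3 libraries of a group came from separate mice or cultures, so the p-values measure the spread between these libraries, which may be technical.

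IL-6 family cytokines are secreted proteins that signal through gp130, the shared receptor subunit encoded by Il6st. IL-6 first binds its own receptor, encoded by Il6ra, which is membrane bound or shed in soluble form. LIF pairs gp130 with the LIF receptor (Lifr), and oncostatin M, the product of Osm, pairs it with the oncostatin M receptor (Osmr). The assembled receptors activate JAK kinases and the transcription factor STAT3, and SOCS3, which STAT3 induces, binds gp130 and limits the signal. Activated macrophages are a well-known source of IL-6 and oncostatin M.

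The positions below are those of GENCODE M21 on GRCm38. Il6 (ENSMUSG00000025746.11) lies on chromosome 5 at 30013114 to 30019981 on the plus strand. Lif (ENSMUSG00000034394.14) lies on chromosome 11 at 4257557 to 4272514, and Osm (ENSMUSG00000058755.3) on the same chromosome and strand at 4236420 to 4241026. The end of Osm and the start of Lif are separated by 16531 bases with 0 annotated genes between them. Il6ra (ENSMUSG00000027947.11) lies on chromosome 3 at 89864059 to 89913196 on the minus strand. Its exons overlap those of the antisense gene Gm42809, and no label says that counting used the strand, so reads of the pair cannot be told apart. Gm42809 was not analysed here. Il6st (ENSMUSG00000021756.12) lies on chromosome 13 at 112464070 to 112510086 on the plus strand. Values are given per gene and do not separate its transcripts.

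The 250 bases before the start of 4 of the 5 genes are shown because the ligand and receptor genes moved in opposite directions under FcMR. They were taken from RefSeq on GRCm38.p6 and are written 5′ to 3′ on the gene's own strand, with matches to 5 short motifs in capitals. The windows are chr5:30012864-30013113 on the plus strand for Il6, chr11:4257318-4257567 on the plus strand for Lif, chr3:89913197-89913446 on the minus strand for Il6ra and chr13:112463820-112464069 on the plus strand for Il6st. The last bases of the Lif window lie inside the gene as GENCODE places its start. Osm had no entry.
Il6: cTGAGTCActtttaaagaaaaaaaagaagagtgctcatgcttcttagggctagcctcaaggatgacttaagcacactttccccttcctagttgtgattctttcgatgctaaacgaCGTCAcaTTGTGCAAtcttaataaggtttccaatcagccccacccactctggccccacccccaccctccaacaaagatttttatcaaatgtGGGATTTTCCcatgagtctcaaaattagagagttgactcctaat
Lif: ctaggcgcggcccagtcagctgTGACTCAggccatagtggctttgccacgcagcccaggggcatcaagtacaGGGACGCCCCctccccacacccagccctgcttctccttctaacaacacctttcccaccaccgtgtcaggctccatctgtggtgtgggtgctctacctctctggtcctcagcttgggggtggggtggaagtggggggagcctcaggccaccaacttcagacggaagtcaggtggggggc
Il6ra: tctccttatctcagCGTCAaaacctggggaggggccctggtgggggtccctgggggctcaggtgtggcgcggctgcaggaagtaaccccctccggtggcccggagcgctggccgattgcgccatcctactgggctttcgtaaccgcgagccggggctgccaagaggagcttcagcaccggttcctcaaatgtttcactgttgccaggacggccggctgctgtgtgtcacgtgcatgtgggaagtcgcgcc
Il6st: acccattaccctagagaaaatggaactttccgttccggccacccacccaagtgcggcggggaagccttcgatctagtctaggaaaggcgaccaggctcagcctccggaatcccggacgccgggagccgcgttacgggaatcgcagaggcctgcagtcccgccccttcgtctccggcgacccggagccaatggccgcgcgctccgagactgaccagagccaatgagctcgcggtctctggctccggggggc
Both strands were searched for the 10-letter NF-kB motif, for AP-1 (TGANTCA), C/EBP (TTGNGCAA) and STAT (TTCNNNGAA) motifs, and for the core of the CRE element (TGACG). Of 32851 RefSeq windows of this length, 7.25% held the NF-kB motif, 6.75% AP-1, 2.61% C/EBP, 7.02% STAT and 17.8% the CRE core. The Il6 window held 4 of the 5 motifs: NF-kB at -44 to -35 from the start, C/EBP at -128 to -121, a CRE core on the minus strand at -135 to -131, and AP-1 at -249 to -243. The CRE core and the C/EBP match of Il6 do not overlap. The Lif window held an NF-kB match at -178 to -169, which reads as a match on both strands, and AP-1 at -228 to -222. The Il6ra window held a CRE core on the minus strand at -236 to -232, and the Il6st window held none of the 5 motifs. GC content was 42.8% in the Il6 window, against 63.6% for Lif, 65.2% for Il6ra and 66.0% for Il6st. A match is a description of these letters, not a site in use, and the part of the matches in the FcMR differences was not tested.

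Library totals ranged from 5532225 to 66729533 estimated counts, a 12.1-fold range. Levels of tested genes are given as CPM, counts scaled to the library's total, after TMM adjustment. Marker sums, single marker genes and genes that did not pass the filter are given as CPM without TMM. Mrc1, the gene of the MR, had 0 to 11 counts in any library. In CPM without TMM, macrophage and myeloid markers (8 of 8 with a row) summed to less with FcMR than with isotype at each time. The sums were not compared after TMM, the scale on which the 5 genes are given. Lyz2, at 16020 to 32570 CPM, made up most of each sum, and no other marker of the list exceeded 1924 CPM. Without TMM the sums were 24330 to 25200 against 26350 to 32200 CPM at 4 h, 19640 to 23930 against 23930 to 26490 CPM at 12 h, and 26650 to 29010 against 33880 to 38230 CPM at 24 h, and 26540 to 28700 CPM in untreated libraries. The part of this in the lower Il6ra and Il6st with FcMR was not tested. T, B and NK cell markers (7 of 8 with a row) summed to 4.01 to 8.90 CPM. Neutrophil markers (8 of 8) summed to 1482 to 1687 CPM in untreated libraries and lay at 182.1 to 215.4 in isotype and 209.1 to 234.2 in FcMR libraries at 24 h. Libraries also differed in how counts depended on the GC content of transcripts. The library numbers of FcMR 12 h replicate 1 and isotype 4 h replicate 3 stand in each other's place relative to their titles. Both also differed from their groups in GC tilt, the mean log2 level of the genes richest in GC minus that of the poorest. The tilt was -0.718 in FcMR 12 h replicate 1, against 0.72 and 0.817 in replicates 2 and 3. It was 0.631 in isotype 4 h replicate 3, against -0.84 and -1.595 in replicates 1 and 2. Whether the 2 libraries were exchanged was not tested. FcMR 12 h replicate 1 carried 101 CPM of Il6st against 87.8 and 89.6 in the other libraries of its group, and the isotype 4 h libraries carried 179 to 226. All comparisons of the 5 genes between FcMR and isotype kept their direction and call when both libraries were left out, including Osm at 12 h.

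Il6 was higher in FcMR than in isotype libraries at each time, by 9.91-fold at 4 h, 16.1-fold at 12 h and 10.6-fold at 24 h, and it showed the largest differences of the 5 genes. At 4 h its level was 1341, 1301 and 1299 CPM in the FcMR libraries and 149, 146 and 102 CPM in the isotype libraries. At 12 h it was 254, 202 and 176 CPM with FcMR and 12.2, 12.9 and 14.02 CPM with isotype. At 24 h it was 55.9, 93.9 and 47.1 CPM with FcMR and 5.49, 6.22 and 7.08 CPM with isotype. Every FcMR library lay above every isotype library of its time, and the lowest FcMR library at 12 h lay above the highest isotype library at 4 h. In edgeR's quasi-likelihood test with Benjamini-Hochberg adjustment over 13468 genes, the log2 fold change was 3.31 at 4 h (SE 0.233, adjusted p = 3.85e-08), 4.01 at 12 h (SE 0.245, adjusted p = 6.38e-09) and 3.40 at 24 h (SE 0.255, adjusted p = 2.63e-08). Over all tested genes, 17.7% were called at 4 h, 16.1% at 12 h and 20.9% at 24 h, and the median log2 fold change was -0.07, -0.02 and 0.01.

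Untreated cells held little Il6, at 1.85, 3.31 and 3.27 CPM, resting on 19 to 72 counts. Isotype libraries at 4 h averaged 133 ± 26.2 CPM (SD, n = 3), so Il6 was already higher 4 h after the control protein, with a log2 fold change over untreated of 5.52 (SE 0.277, edgeR adjusted p = 4.72e-11). The isotype mean fell to 13.03 ± 0.932 CPM at 12 h and 6.26 ± 0.794 CPM at 24 h, where it was still above untreated (log2 fold change 1.11, SE 0.285, edgeR adjusted p = 0.00427). The FcMR mean fell from 1314 ± 23.6 CPM at 4 h to 211 ± 39.8 CPM at 12 h and 65.6 ± 24.9 CPM at 24 h. Both treatments thus had their highest Il6 at 4 h. From 4 to 12 h Il6 fell by 2.64 on the log2 scale with FcMR (edgeR adjusted p = 8.24e-08) and changed by -3.34 with isotype (adjusted p = 2.52e-08). From 12 to 24 h it fell by 1.67 with FcMR (edgeR adjusted p = 3.07e-05) and changed by -1.07 with isotype (adjusted p = 0.00714). The background of these tests was 40.3% of genes called for FcMR and 35.2% for isotype from 4 to 12 h, and 23.8% and 16.7% from 12 to 24 h.

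**Figure D1:**
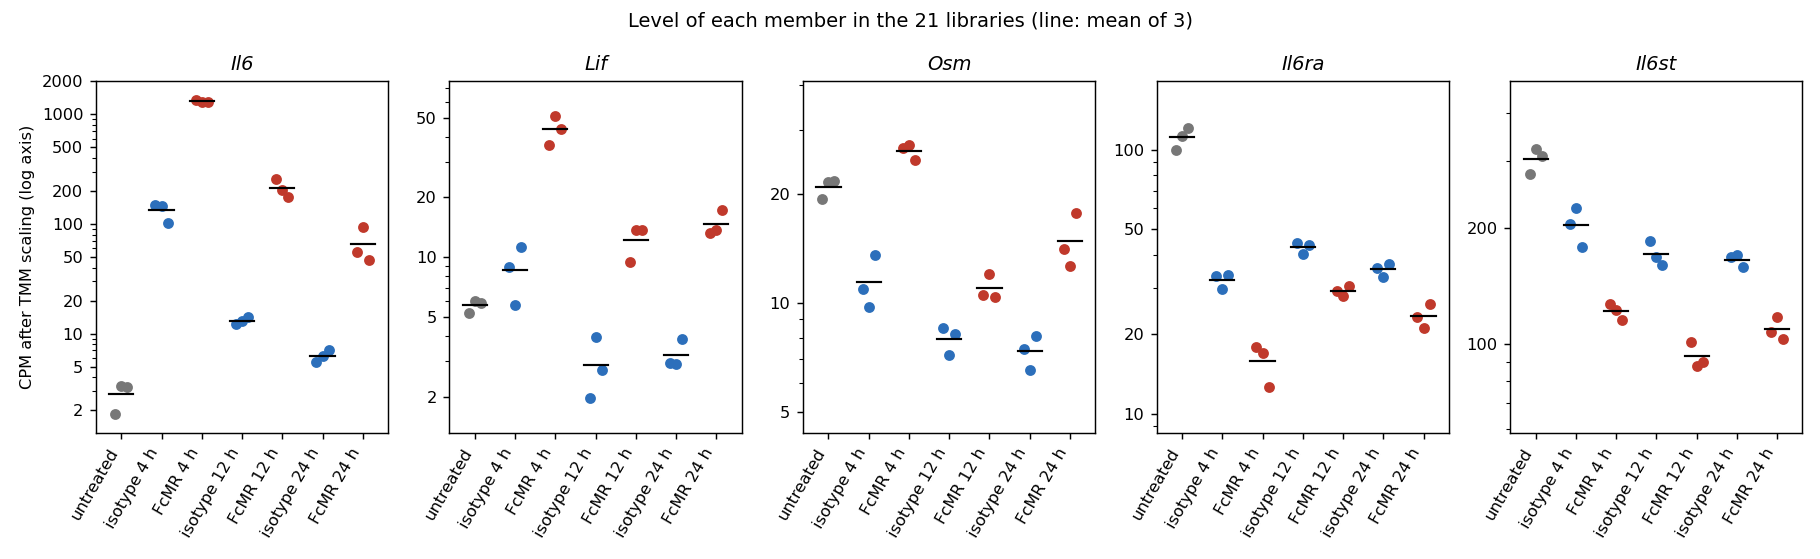
Level of each gene in each library, in CPM after TMM scaling on a log axis whose range differs between panels. Points are libraries (grey untreated, blue isotype, red FcMR) and lines are means of 3. Il6, Lif and Osm have their FcMR points above the isotype points of the same time, and Il6ra and Il6st have them below.

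Lif, which encodes leukaemia inhibitory factor, was also higher with FcMR at each time, by 4.47- to 4.99-fold. Its level at 4 h was 36.6, 50.9 and 43.6 CPM with FcMR and 8.90, 5.77 and 11.2 CPM with isotype. At 12 h it was 9.47, 13.6 and 13.6 CPM with FcMR and 1.96, 3.96 and 2.71 CPM with isotype. At 24 h it was 13.3, 13.6 and 17.2 CPM with FcMR and 2.94, 2.89 and 3.86 CPM with isotype. The groups did not overlap at any time, although the isotype values were low and rested on as few as 27 counts. The log2 fold change was 2.32 at 4 h (SE 0.235, edgeR adjusted p = 2.64e-06), 2.16 at 12 h (SE 0.245, adjusted p = 5.48e-06) and 2.18 at 24 h (SE 0.254, adjusted p = 4.73e-06). Untreated libraries held 5.25, 6.03 and 5.88 CPM. Isotype Lif overlapped untreated at 4 h (log2 fold change 0.61, SE 0.242, edgeR adjusted p = 0.0586), with an adjusted p between 0.00151 and 0.48 over the alternatives. It lay below untreated at 12 h (log2 fold change -1.07, SE 0.249, edgeR adjusted p = 0.00214) and at 24 h (-0.84, SE 0.26, adjusted p = 0.0149). The call at 24 h was lost without isotype 24 h replicate 1 (log2 fold change -0.74, edgeR adjusted p = 0.0659) and without replicate 2 (-0.73, adjusted p = 0.0675). From 4 to 12 h Lif fell by 1.84 on the log2 scale with FcMR (edgeR adjusted p = 4.52e-06) and changed by -1.68 with isotype (adjusted p = 9.41e-05), and from 12 to 24 h the difference was 0.26 with FcMR (adjusted p = 0.415, and 0.0468 with a replicate block and GC correction) and 0.23 with isotype (adjusted p = 0.59).

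Osm showed smaller differences, 2.30-fold at 4 h, 1.36-fold at 12 h and 2.0-fold at 24 h, and a different course against untreated cells. Untreated libraries held 19.3, 21.5 and 21.7 CPM. At 4 h the level was 26.8, 27.4 and 24.8 CPM with FcMR and 10.9, 9.74 and 13.6 CPM with isotype, so that FcMR libraries lay above untreated cells and isotype libraries below them. At 12 h it was 10.5, 12.1 and 10.4 CPM with FcMR and 8.53, 7.19 and 8.18 CPM with isotype, all below untreated. At 24 h it was 14.1, 12.7 and 17.7 CPM with FcMR and 7.46, 6.54 and 8.11 CPM with isotype. The FcMR and isotype libraries of a time did not overlap. The log2 fold change was 1.2 at 4 h (SE 0.139, edgeR adjusted p = 1.08e-05), 0.45 at 12 h (SE 0.137, adjusted p = 0.0325) and 1.0 at 24 h (SE 0.143, adjusted p = 4.7e-05). The call at 12 h was lost without FcMR 12 h replicate 1 (edgeR adjusted p = 0.0504) or replicate 2 (adjusted p = 0.124), and without isotype 12 h replicate 1, 2 or 3 (adjusted p = 0.0548, 0.12 and 0.0743), with a log2 fold change of 0.37 to 0.49. Isotype Osm fell below untreated by 0.86, 1.38 and 1.5 on the log2 scale at 4, 12 and 24 h (edgeR adjusted p = 8.86e-05, 2.57e-07 and 1.36e-07). FcMR Osm fell by 1.27 on the log2 scale from 4 to 12 h (edgeR adjusted p = 1.09e-06). Its difference from 12 to 24 h was 0.43 (edgeR adjusted p = 0.0307), with an adjusted p of up to 0.159 under the alternatives.

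The receptor genes moved the other way. Il6ra, the ligand-binding receptor of IL-6, was lower with FcMR than with isotype by 2.01-fold at 4 h, 1.46-fold at 12 h and 1.51-fold at 24 h. Untreated libraries held by far the most, at 100.3, 113 and 121.5 CPM. At 4 h the level was 17.9, 17.04 and 12.7 CPM with FcMR and 33.3, 29.8 and 33.6 CPM with isotype. At 12 h it was 29.2, 28.0 and 30.5 CPM with FcMR and 44.5, 40.3 and 43.4 CPM with isotype. At 24 h it was 23.3, 21.2 and 25.97 CPM with FcMR and 35.8, 32.9 and 37.1 CPM with isotype. Every treated library lay below every untreated one, and FcMR libraries lay below isotype libraries of the same time without overlap. The log2 fold change of FcMR over isotype was -1.0 at 4 h (SE 0.116, edgeR adjusted p = 1.07e-05), -0.55 at 12 h (SE 0.111, adjusted p = 0.00171) and -0.59 at 24 h (SE 0.113, adjusted p = 0.000882). Isotype Il6ra fell below untreated by 1.79, 1.38 and 1.66 on the log2 scale at 4, 12 and 24 h (edgeR adjusted p = 9.8e-10, 1.66e-08 and 2.01e-09). From 4 to 12 h it then rose with FcMR (log2 fold change 0.86, edgeR adjusted p = 1.19e-05) and with isotype (0.41, adjusted p = 0.00988), without regaining the untreated level. From 12 to 24 h the Il6ra difference was -0.32 with FcMR (edgeR adjusted p = 0.0469, up to 0.253 under the alternatives). With isotype it was -0.28 (edgeR adjusted p = 0.0937, and 0.011 with only the groups compared). In CPM without TMM, neutrophil markers lay at 813.5 to 986.4 with FcMR and 940.7 to 1346 with isotype at 4 h. At 12 h they lay at 299 to 528.9 and 294.7 to 386.5. Their summed level was thus lower at 12 h than at 4 h. Their part in the fall of Il6ra and Osm below untreated was not tested, and in these bulk libraries fewer cells of a type and less RNA per cell cannot be told apart.

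Il6st, the gene of gp130, was lower with FcMR by 1.67-fold at 4 h, 1.84-fold at 12 h and 1.51-fold at 24 h. Untreated libraries held the most, at 278, 322 and 309 CPM, above every treated library. At 4 h the level was 127, 122 and 116 CPM with FcMR and 206, 226 and 179 CPM with isotype. At 12 h it was 101, 87.8 and 89.6 CPM with FcMR and 185, 168 and 160 CPM with isotype. At 24 h it was 107, 118 and 103 CPM with FcMR and 168, 170.5 and 158 CPM with isotype. The groups did not overlap, and the FcMR libraries of all 3 times lay below every isotype library. The log2 fold change of FcMR over isotype was -0.74 at 4 h (SE 0.094, edgeR adjusted p = 2.56e-05), -0.88 at 12 h (SE 0.093, adjusted p = 2.5e-06) and -0.60 at 24 h (SE 0.093, adjusted p = 0.000122). Isotype Il6st fell below untreated by 0.58, 0.82 and 0.87 on the log2 scale at 4, 12 and 24 h (edgeR adjusted p = 9.2e-05, 1.24e-06 and 6.77e-07). It fell from 4 to 12 h with FcMR, by 0.39 on the log2 scale (edgeR adjusted p = 0.00283), and the difference with isotype was -0.25 (adjusted p = 0.047, up to 0.455 under the alternatives).

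Set side by side, the 3 ligand genes were called higher and the 2 receptor genes lower with FcMR at 4, 12 and 24 h. The share of all tested genes called higher was 8.62, 8.61 and 11.4% at 4, 12 and 24 h, and the share called lower was 9.13, 7.49 and 9.44%. Called higher at all 3 times were 3.66% of genes, and lower at all 3 times 1.9%. The 5 genes were chosen with earlier results of these data known, so these shares are a background and not a test. At 4 h the split of calls over all genes depended on the scaling. It was 1161 higher and 1229 lower with TMM factors, 1412 and 839 with RLE factors, 1509 and 835 with DESeq2, and 2285 and 1462 with a correction for GC content. The 5 genes kept their direction and call at 4 h under each of these. The FcMR and isotype libraries of a time did not overlap for any of the 5 genes, where 29.7, 35.4 and 34.4% of all genes showed no overlap at 4, 12 and 24 h. In isotype against untreated cells, 35.6, 41.6 and 42.2% of genes were called at the 3 times (20.4, 22 and 21.3% higher, 15.2, 19.6 and 20.9% lower), and 42.4, 61.8 and 62.7% showed no overlap. In that comparison Il6 was called higher at each time, and Osm, Il6ra and Il6st were called lower at each time. The comparisons of FcMR and of untreated cells share the isotype libraries. Relative to untreated libraries, FcMR and isotype libraries lay on the same side for Il6, Il6ra and Il6st at all 3 times, and FcMR libraries lay farther out.

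**Figure D2:**
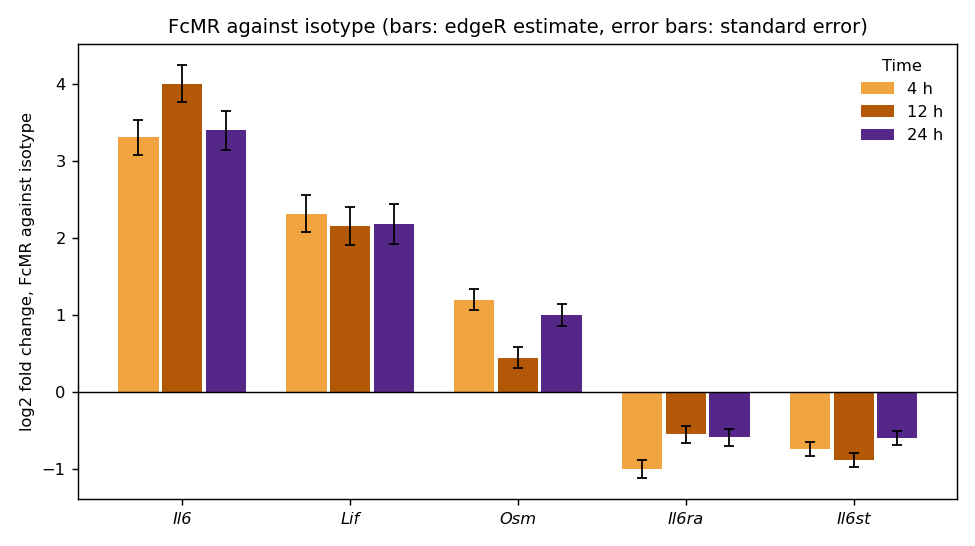
Difference between FcMR and isotype for each gene at 4, 12 and 24 h, as the log2 fold change of the edgeR fit with its standard error. The ligand genes Il6, Lif and Osm lie above 0 and the receptor genes Il6ra and Il6st below 0 at each time, and Osm at 12 h (0.45) is the smallest difference.

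Whether the FcMR difference itself changed with time was tested over the 3 times together, a test that called 11% of all genes. Osm passed it (edgeR adjusted p = 0.0362), and its FcMR difference changed from 4 to 12 h by -0.75 on the log2 scale (SE 0.195, edgeR adjusted p = 0.0325, where 5.39% of genes were called). From 12 to 24 h the change in the Osm difference was 0.55 (SE 0.197, edgeR adjusted p = 0.247, where 1.73% were called). The joint call for Osm was lost with no filter on low counts (edgeR adjusted p = 0.0744) and with a GC correction (adjusted p = 0.109). It was also lost without FcMR 4 h replicate 1 or 2, isotype 4 h replicate 1 or 2, FcMR 12 h replicate 1 or 3, or isotype 12 h replicate 1 or 3 (edgeR adjusted p = 0.0579 to 0.0787). For the others the joint test gave an edgeR adjusted p of 0.263 for Il6, 0.96 for Lif, 0.118 for Il6ra and 0.341 for Il6st, which does not show that their differences stayed the same. With the GC correction the adjusted p was 0.0369 for Il6 and 0.047 for Il6ra.

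Levels of different genes were compared per kilobase of the gene's median transcript. In untreated cells the order was Il6st at 109 CPM per kb, Il6ra at 18.6, Osm at 13.7, Il6 at 2.67 and Lif at 1.51. The order of Il6 and Lif reversed when the longest coding transcript was used, at 1.2 and 1.42 CPM per kb. At 4 h of FcMR the order was Il6 at 1249 CPM per kb, Il6st at 43.8, Osm at 17.3, Lif at 11.5 and Il6ra at 2.65. Il6 thus went from below Il6ra and Il6st to far above both, and Il6ra became the lowest of the 5. With the longest coding transcript Il6 was again first, at 561 CPM per kb, and Il6ra last, at 1.84.

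The other ligand genes of the family that passed the filter were in part higher with FcMR too. Of 7 listed, 3 passed the filter on low counts: Il27 and Ebi3, which encode the subunits of IL-27, and Clcf1, which encodes cardiotrophin-like cytokine factor 1. Il11, Ctf1, Ctf2 and Cntf did not pass. All 3 were called higher with FcMR at 4 h, 2 of 3 at 12 h and 1 of 3 at 24 h, and 0 were called lower, where 8.62, 8.61 and 11.4% of all genes were called higher. The median log2 fold change of the 3 was 1.19, 1.14 and 0.29. This list and those below were written with earlier results of these data known. Their counts beside the shares of all genes are therefore a description and not a test. Il27 averaged 73.8 ± 11.2 CPM with FcMR and 9.45 ± 6.49 CPM with isotype at 4 h (SD, n = 3), against 0.371 CPM in untreated cells. Its log2 fold change was 2.93 at 4 h (SE 0.335, edgeR adjusted p = 9.6e-06), 1.88 at 12 h (SE 0.345, adjusted p = 0.000771) and 0.29 at 24 h (SE 0.557, adjusted p = 0.791). Like Il6, Il27 had its highest level at 4 h, but at 24 h its mean was 0.964 CPM with FcMR and 0.806 CPM with isotype. Ebi3 differed by 0.93, 1.14 and 0.71 on the log2 scale at the 3 times (edgeR adjusted p = 0.00723, 0.00124 and 0.0395). Clcf1 was higher at 4 h (log2 fold change 1.19, SE 0.241, edgeR adjusted p = 0.00191), and its difference was 0.28 at 12 h (adjusted p = 0.526) and -0.03 at 24 h (adjusted p = 0.961).

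The partner receptors of Lif and Osm were scarce in these cells. Osmr did not pass the filter, and its highest group mean was 0.257 CPM without TMM, in FcMR 24 h libraries. Lifr averaged 2.56 CPM in untreated cells and 1.11 to 1.78 CPM in treated groups, and its log2 fold change with FcMR was -0.28, 0.24 and 0.37 at 4, 12 and 24 h (edgeR adjusted p = 0.633, 0.639 and 0.372). Of 6 further receptor genes, 4 passed the filter, and 0 were called in any FcMR comparison by edgeR or by DESeq2. At an unadjusted p under 0.05, 0 passed at 4 h, 1 at 12 h and 0 at 24 h. That 1 was Il27ra, the IL-27 receptor gene, with a log2 fold change of -0.60 at 12 h (edgeR adjusted p = 0.1). Il11ra1, a receptor gene for IL-11, was the most abundant of them at 58.2 to 158 CPM, with log2 fold changes of -0.04, -0.42 and -0.56 (edgeR adjusted p = 0.957, 0.42 and 0.225). Il31ra, a receptor gene for IL-31, had means of 0.618 to 2.06 CPM, with log2 fold changes of -0.60, -0.08 and -0.10 (edgeR adjusted p = 0.387, 0.948 and 0.923). Cntfr was not analysed here.

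Among 9 genes of receptor shedding and signalling, 3, 1 and 2 rose with FcMR over isotype at 4, 12 and 24 h, and 1, 0 and 0 fell, with list medians of 0.17, 0.07 and 0.12. Over all genes 8.62, 8.61 and 11.4% were called higher and 9.13, 7.49 and 9.44% lower, so the counts at 12 and 24 h lie near this background. DESeq2 called 3 genes of this list at 4 h, where edgeR called 4, and as many as edgeR at 12 and 24 h. Stat3 was higher at 4 h, at a mean of 324.5 CPM with FcMR and 176 CPM with isotype (log2 fold change 0.88, SE 0.111, edgeR adjusted p = 2.53e-05), and differed by 0.12 at 12 h (adjusted p = 0.56) and 0.21 at 24 h (adjusted p = 0.219). Adam10, a sheddase of the IL-6 receptor, was the 1 gene called lower at 4 h (log2 fold change -0.39, edgeR adjusted p = 0.0481). Adam17, another sheddase of that receptor, was called higher at 24 h (log2 fold change 0.49, edgeR adjusted p = 1.48e-05). Jak2, a kinase bound to gp130, was called higher with a log2 fold change of 0.595 at 4 h (edgeR adjusted p = 0.00762), 0.52 at 12 h (adjusted p = 0.0183) and 1.19 at 24 h (adjusted p = 8.72e-06).

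Among 16 feedback and STAT3 target genes, 6, 6 and 7 rose at 4, 12 and 24 h and 0, 1 and 1 fell, with list medians of 0.38, 0.37 and 0.47. The shares of all genes called were again 8.62, 8.61 and 11.4% higher and 9.13, 7.49 and 9.44% lower. Socs3, which encodes the inhibitor that binds gp130, averaged 352 ± 18.6 CPM with FcMR and 106 ± 53.9 CPM with isotype at 4 h (SD, n = 3), 177 ± 54.2 and 39.7 ± 4.3 CPM at 12 h, and 51.3 ± 17.1 and 15.7 ± 1.72 CPM at 24 h. The libraries did not overlap, and the log2 fold change was 1.72, 2.15 and 1.70 (edgeR adjusted p = 0.00064, 7.11e-05 and 0.000783). Socs1, a related inhibitor of JAK kinases, differed by 1.2 at 4 h (edgeR adjusted p = 0.126), 1.52 at 12 h (adjusted p = 0.0468) and 0.86 at 24 h (adjusted p = 0.425), with overlapping libraries at 4 and 12 h. Cish, another SOCS family gene, showed the highest difference of the list at 4 h (log2 fold change 1.84, edgeR adjusted p = 8.4e-06), and Timp1, a metalloproteinase inhibitor gene, the lowest of those called (0.86, adjusted p = 0.000128). Saa3, an acute-phase gene, was highest at 12 and 24 h (log2 fold change 2.41 and 3.04, edgeR adjusted p = 7.57e-08 and 2.73e-09). Myc, a growth regulator, was the 1 gene called lower, by -1.75 and -1.91 at these times (edgeR adjusted p = 0.000218 and 0.000129).

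Among 10 regulators of Il6 transcription and mRNA decay, 5, 2 and 2 rose at 4, 12 and 24 h and 0, 1 and 1 fell, with list medians of 0.66, 0.00 and 0.13. Against 8.62, 8.61 and 11.4% of all genes called higher and 9.13, 7.49 and 9.44% lower, the counts at 12 and 24 h lie near the background. Nfkbiz, whose product binds NF-kB subunits at the Il6 promoter, was the highest at each time (log2 fold change 2.12, 1.34 and 1.24, edgeR adjusted p = 2.28e-09, 2.95e-07 and 1.24e-06). Rel, an NF-kB subunit gene, had the lowest difference of those called at 4 h (0.68, edgeR adjusted p = 0.00942). Atf3, which encodes a transcriptional repressor, was lower at 12 h (-0.45, edgeR adjusted p = 0.00171) and 24 h (-0.51, adjusted p = 0.000401).

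**Figure D3:**
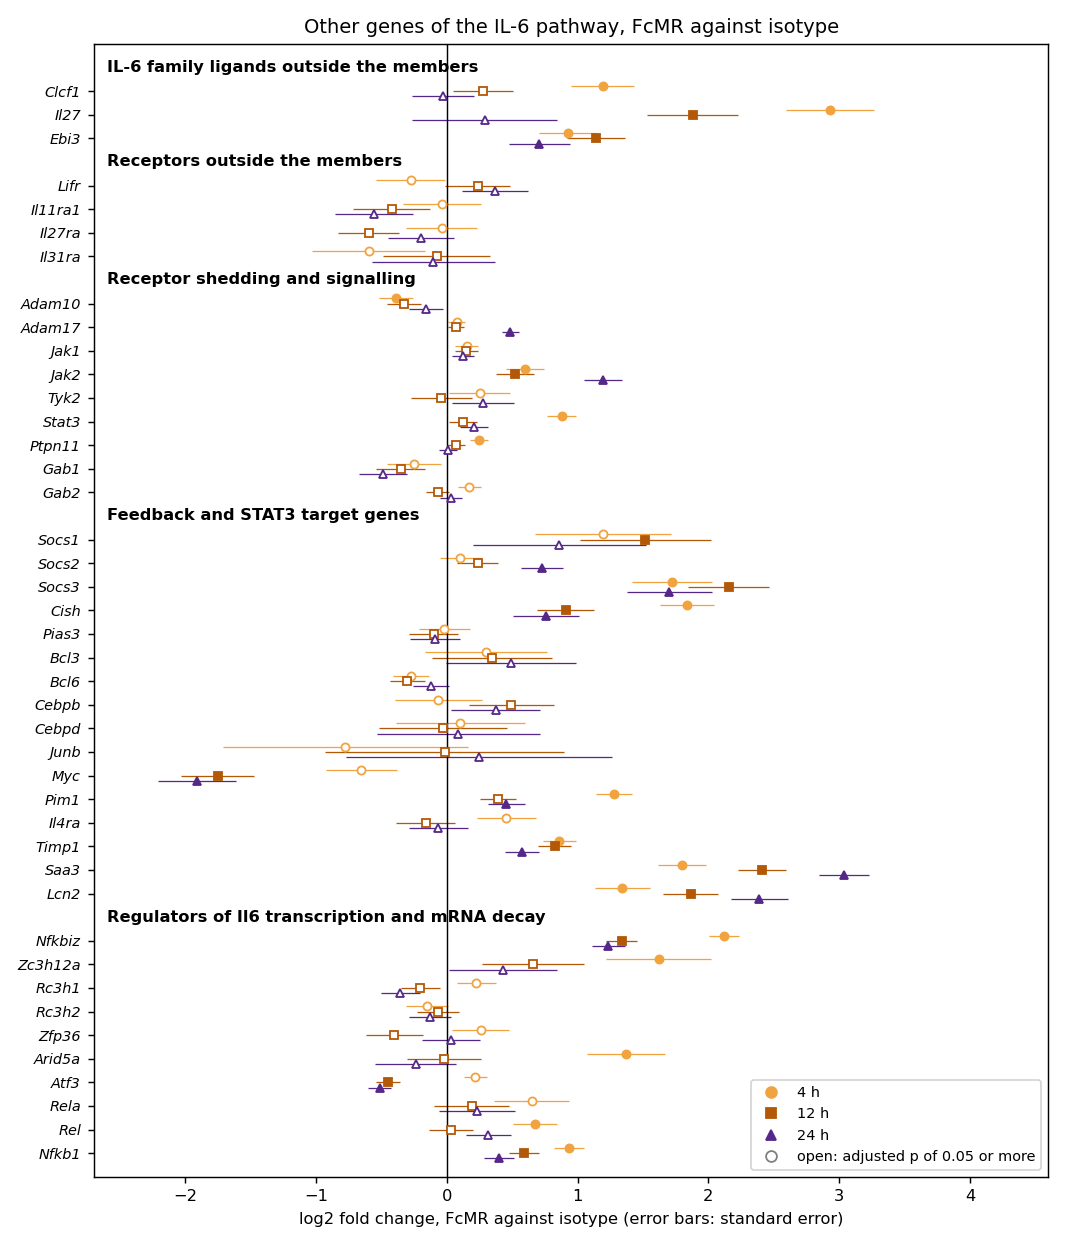
Log2 fold change of FcMR over isotype with its standard error for the tested genes of 5 lists (circles 4 h, squares 12 h, triangles 24 h), filled where the edgeR adjusted p is under 0.05. Il27, Socs3, Saa3 and Nfkbiz lie far to the right, Myc to the left, and the 4 receptor genes are all open.

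The genes most like each member were sought by Pearson correlation of log2 CPM over the 21 libraries among 10370 genes. These libraries share groups, so r describes the group pattern, and no test is given. A high r does not show that the FcMR difference was of like size. Closest to Il6 were Fchsd2 (r = 0.984), Ptgs2 (0.982), the inducible cyclooxygenase gene, and Il1a (0.982), the IL-1 alpha gene. The log2 fold change of FcMR over isotype at 4, 12 and 24 h was 0.78, 0.75 and 0.73 for Fchsd2. It was 3.18, 3.51 and 3.99 for Ptgs2, and 2.67, 3.43 and 2.99 for Il1a. Closest to Lif were Slmapos2 (r = 0.942), Zhx2 (0.932) and Dennd5a (0.911). For Osm they were Trim25 (r = 0.899), Fzd1 (0.897) and Sdcbp2 (0.875), the loosest match of the 5. Il6ra was closest to Zfand2a (r = 0.964), Lpin1 (0.948) and Vav2 (0.941). Zfand2a differed with FcMR by -0.37, -0.1 and -0.14 on the log2 scale at 4, 12 and 24 h. Lpin1 differed by -1.15, -1.05 and -0.45, and Vav2 by -0.74, -0.56 and -0.29. Il6st was closest to Klf10 (r = 0.969), Socs6 (0.964), another SOCS family gene, and Cd300a (0.94).

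In CPM without TMM, the scale of all marker values here, lists of other cell types also differed between FcMR and isotype libraries. Fibroblast and stroma markers (7 of 7 with a row) summed to 11.1 to 17.1 CPM with FcMR and 2.61 to 3.36 CPM with isotype at 12 h, and to 8.89 to 11.8 and 0.946 to 1.47 CPM at 24 h. Pdgfrb made up most of that sum. Of the defining collagen genes, Col1a1 reached 1.63 CPM, and Col1a2 and Col3a1 reached 0.288 CPM, in the library with the most. Dcn reached 3.61 and Pdgfra 1.33 CPM. Endothelial markers (3 of 4 with a row) summed to 95.9 to 106 CPM with FcMR and 58.3 to 59.3 CPM with isotype at 4 h, mostly from Kdr. Dendritic cell markers (6 of 6 with a row), which these cultures can also hold, summed to 1408 to 1513 CPM with FcMR and 1412 to 1527 CPM with isotype at 4 h, 1645 to 1806 and 1710 to 1828 CPM at 12 h, and 1641 to 1719 and 1499 to 1620 CPM at 24 h. On this scale the FcMR and isotype libraries overlapped at 4 and 12 h and not at 24 h. Overlap after TMM was not assessed, so no contrast between the times is drawn. Mast cell and basophil markers (6 of 6 with a row) summed to 31.4 to 33.8 CPM in untreated libraries, and to 7.29 to 13.6 CPM with FcMR and 7.47 to 8.38 CPM with isotype at 24 h. Their part in the differences of the 5 genes was not tested.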

How the data were processed

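RNA sequencing libraries were made from 100 ng of RNA and read as 75 bp single ends, per the labels' protocols. Kallisto 0.44.0, CASAVA 1.8.2, DESeq2, mm10 and GRCm38 are named in the submitters' processing notes, with no DESeq2 version. The authors deposited a table of estimated counts per gene (whole numbers, used as they are) and a table of normalized counts, a signal that differs from the first by a factor for each gene and library. How that factor was set is not given in the sources used here, and the table was used only in limma alternatives. All other values reported were computed from the deposited estimated counts. Of 23250 identifiers, 23206 matched GENCODE M21 without the version and 21250 with it.

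Genes were filtered with filterByExpr (minimum count 10), scaled with TMM and fitted with edgeR 4.0.16 (R 4.3.3, glmQLFit and glmQLFTest) in 1 model of 21 libraries with a term for each of the 7 groups. Contrasts were FcMR against isotype, isotype against untreated, each treatment over time, and the change of the FcMR difference over time. Called means a Benjamini-Hochberg adjusted p under 0.05 over 13468 genes. The scripts were tested on simulated counts. Totals of 5532225 to 66729533 counts set the precision, so low genes are least certain in the shallow libraries.

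The 5 genes are always named. Of the lists, the family's ligands and receptors, Socs1, Socs3 and Stat3 are named, plus the called gene with the highest and the lowest log2 fold change in each list and FcMR comparison, and the 3 genes most like each member (prior count 2, mean log2 CPM of at least 1). Members and lists were chosen with earlier results of these data known, and 2 list genes are not reported here. Alternatives were RLE factors, DESeq2 1.42.0, no filter, a mean count of at least 10, only the groups compared, a replicate block, a GC correction (lowess span 0.3), both together, limma 3.58.1 on the normalized table, both libraries out of title order left out, and each library left out in turn.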

Additional observations from a re-analysis of the deposited data

Results flagged for a closer look

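In the main fit Osm stood apart because its FcMR difference changed with time by a direct test. The change from 4 to 12 h was -0.75 on the log2 scale (SE 0.195, edgeR adjusted p = 0.0325), from 1.2 at 4 h to 0.45 at 12 h. The test over all 3 times gave an edgeR adjusted p of 0.0362. With the GC correction this test called Il6 (edgeR adjusted p = 0.0369) and Il6ra (adjusted p = 0.047) and not Osm (adjusted p = 0.109). In the main fit the uncalled 4 to 12 h change of Il6 was of like size, at 0.70 (SE 0.308, edgeR adjusted p = 0.212). Both Osm results lie close to the threshold. Over the alternatives the 4 to 12 h change ranged from -0.91 to -0.51 with an adjusted p of up to 0.127. The test over all 3 times had an adjusted p between 0.00903 and 0.109 for Osm.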

How the results depend on the processing

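Of 255 alternative values for the 5 genes in FcMR against isotype, 248 kept direction and call. The other 7 were Osm at 12 h, at 0.47 with no filter (adjusted p = 0.073), 0.45 with only the groups compared (adjusted p = 0.0684), and 0.37 to 0.49 with 1 library left out. In isotype against untreated, 248 of 255 kept both. Lif at 4 h became called with DESeq2 (0.60), the replicate block (0.61), the GC correction (0.72) and block with GC correction (0.73), and ranged from 0.37 to 0.78 with 1 library left out (called without isotype 4 h replicate 2, 0.78). Lif at 24 h ranged from -0.94 to -0.73. For the test over all times, the Osm adjusted p was 0.0744 with no filter, 0.109 with GC correction, 0.103 with block and GC correction, 0.0559 and 0.0562 with limma at pseudocounts 1 and 0.1, and 0.0105 to 0.0787 with 1 library left out. For Il6 it was 0.0369 with GC correction and 0.031 with block and GC correction, for Il6ra 0.047 with GC correction, and for Il6st 0.0481 with block and GC correction. From 12 to 24 h of isotype, the uncalled differences changed sign for Il6st (0.01 with RLE, 0.02 with DESeq2, -0.08 to 0.02 with 1 library left out) and Osm (0.20 with GC correction, 0.18 with block and GC correction). The cause of these changes was not tested.

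Counts of genes called moved more. FcMR against isotype gave 2390 at 4 h, against 868 with only the groups compared, 3747 with GC correction, 3932 with the block and GC correction, 3898 without both libraries out of title order, and 1589 (without FcMR 4 h replicate 2) to 3151 with 1 left out. At 12 h it gave 2169, against 3372 and 3573 with GC correction without and with the block. Isotype against untreated at 4 h gave 4792, against 2881 with only the groups compared. The test over all times gave 1484, against 925 with no filter, 2987 and 3207 with GC correction without and with the block, 2616 without both libraries, and 973 (without FcMR 4 h replicate 2) to 2294 (without isotype 4 h replicate 3). The change from 4 to 12 h gave 726, against 349 with no filter, 359 with only the groups compared, 1749 and 1943 with GC correction, 400 and 406 with limma, and 323 (without isotype 12 h replicate 1) to 1422 (without isotype 4 h replicate 3). Of the 12 libraries at these times, leaving out any but FcMR 4 h replicate 3 or FcMR 12 h replicate 2 moved it by over 1.5 times. From 12 to 24 h it gave 233, against 363 with DESeq2, 154 with no filter, 650 and 759 with GC correction, and 138 and 134 with limma. FcMR 24 h against 12 h gave 3203, against 1046 with only the groups compared, 4846 with block and GC correction, 5407 without both libraries, and 1988 (without FcMR 12 h replicate 2, 2099 without replicate 3) to 4276. Isotype 12 h against 4 h gave 4737, against 2689 with only the groups compared, 7127 without both libraries, and 3126 (without isotype 4 h replicate 2) to 6739. Isotype 24 h against 12 h gave 2247, against 5794 with only the groups compared, 3593 and 3813 with GC correction, 3805 without both libraries, and 1401 to 1675 with 1 left out (lowest without isotype 12 h replicate 2 or 3 or isotype 24 h replicate 1 or 2).

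Same-numbered libraries deviated together with correlations of 0.027, -0.166 and -0.074 at 4 h. The correlations were 0.199, 0.046 and 0.073 at 12 h, and 0.036, -0.001 and 0.007 at 24 h. Whether a number marks a shared mouse or culture cannot be decided from them, because libraries of a group also differed in GC tilt. The tilt ran from -1.595 to 0.631 in isotype 4 h libraries. With the replicate block the FcMR comparisons called 2541, 2290 and 2911 genes at 4, 12 and 24 h. Without the block they called 2390, 2169 and 2813. Counts were lowest for Il6, Lif and Osm, at 19, 27 and 49 in the library with the fewest.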
